A study of Homo sapiens with 24 samples.

Results

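ZNF850 is a KRAB zinc finger protein (KZFP), and its binding sites were mapped by ChIP-exo with an antibody against an HA tag. The sites described here were the peaks of the ZNF850 list with a score above 80 in the column where MACS, the peak caller, wrote its score, which is minus 10 times the log10 of the peak's p-value against a control. Of the 993 peaks in the ZNF850 list, 464 (46.7%) passed this threshold. The peak lists of all 22 libraries together held 31721 peaks above 80, and 30882 of them came from the other 14 ChIP-exo libraries.

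Each KZFP library was made from HEK 293T cells, an established line of human embryonic kidney origin, transduced with a single HA-tagged KZFP. The cells were selected with puromycin at 1 ug/ml for 7 days and the transgene was induced with doxycycline at 1 ug/ml before fixation with formaldehyde. Chromatin was immunoprecipitated with the anti-HA antibody clone 16B12, so that the lists describe the tagged, induced protein and not ZNF850 expressed from its own gene. The series held 15 KZFPs by ChIP-exo, 6 by ChIP-seq and 1 ChIP-seq library of 293T control cells. Each KZFP had 1 library. No difference between libraries could therefore be tested against a spread between replicates, no p-value is given, and shares carry exact Clopper-Pearson 95% intervals that cover counting error only. The lists held no read counts, so the depth behind each peak is unknown.

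KZFPs form the largest family of sequence-specific DNA-binding proteins in the human genome. Their arrays of zinc fingers read DNA, each finger contacting a few neighbouring bases, while the KRAB domain recruits the corepressor KAP1 (TRIM28), which brings in a histone methyltransferase and heterochromatin proteins. Many members bind transposable elements, which exist as families of diverged copies, and others bind gene promoters or satellite repeats. In ChIP-exo an exonuclease trims the immunoprecipitated DNA up to the crosslinked protein, which sharpens the position of the bound site.

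A short sequence, AGCCCCTCTC, was held by 236 of the 464 ZNF850 peaks, nearly all of them in groups of peaks with similar sequence. It is shown in high-scoring peaks of one sequence group, named B, and, exact or with 1 mismatch, in peaks that resembled no other ZNF850 peak (single-sequence peaks), to set the bases around it side by side. Most single-sequence peaks did not hold the exact 10-mer. Capitals mark bases identical to the 10-mer, each line is written 5′ to 3′ on the strand that holds it, and coordinates are hg19.
Group B, chr2:54285805-54285854, minus strand, peak score 903.42, in an intron of ACYP2: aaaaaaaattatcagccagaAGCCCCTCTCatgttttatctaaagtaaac
Group B, chr17:47206942-47206991, minus strand, peak score 777.57, between genes, near B4GALNT2: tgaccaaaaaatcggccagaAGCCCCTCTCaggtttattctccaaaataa
Single sequence, chr5:139013105-139013154, minus strand, peak score 235.28, between genes, nearest CXXC5: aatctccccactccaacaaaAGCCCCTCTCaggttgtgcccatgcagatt
Single sequence, chr4:78079172-78079201, minus strand, peak score 216.73, in an untranslated exon of CCNG2: cagctgcagaAGCCCCTCTCggagagtccc
Single sequence, chr2:11578964-11579013, plus strand, peak score 419.59, between genes, nearest E2F6: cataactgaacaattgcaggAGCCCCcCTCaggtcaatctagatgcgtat
Single sequence, chr10:102027490-102027519, plus strand, peak score 325.97, at a coding exon of CWF19L1: gagggacagaAGCCtCTCTCaggtgtttgc
Counted from 1 at the 5′ end of the 10-mer, the sequence near E2F6 carried the substitution T7C and that of CWF19L1 carried C5T.

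The 10-mer was found in 236 of the 464 ZNF850 peaks (50.9%, interval 46.2 to 55.5%) on either strand, against 0.217% of the peaks of the other ChIP-exo libraries together (67 of 30882). ZNF251 gave 20974 of those peaks, and without it the share was 12 of 9908 (0.121%). It was derived from the peaks on odd-numbered chromosomes and X, as an extension of the leading 8-mer AGCCCCTC, which it contains. On the even-numbered chromosomes, which this derivation did not read although earlier results of these data were known, 112 of 217 ZNF850 peaks held the 10-mer (51.6%, interval 44.8 to 58.4%), and 0.213% of the other libraries' peaks did. Of the 236 peaks with the 10-mer, 157 were in group A and 75 in group B, which are groups of peaks with similar sequence. Their peaks lay on 22 and 23 chromosomes, so the even-numbered ones held similar copies and are not an independent check. The 8-mer was present in 279 ZNF850 peaks (60.1%), and in 1.60% of the other libraries' peaks together. By library its share ran from 0% for ZNF729 to 22.8% for ZNF763 (51 of 224 peaks), with 8.33% for ZNF546. Among the other 14 libraries the share with the 10-mer was highest for ZNF546, where it was 1 of 24 peaks, and was 2.68% for ZNF763 and 0.262% for ZNF251. No peak held more than 1 copy. Of 500 bp windows of the genome 0.186% held the 10-mer, and of 35116 RefSeq promoters of 300 bp (GRCh38.p14) 0.273% did, while it lay in the central 300 bp of 50.0% of the ZNF850 peaks. Such a match is a description of the letters and not a mapped contact of the protein.

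**Figure D1:**
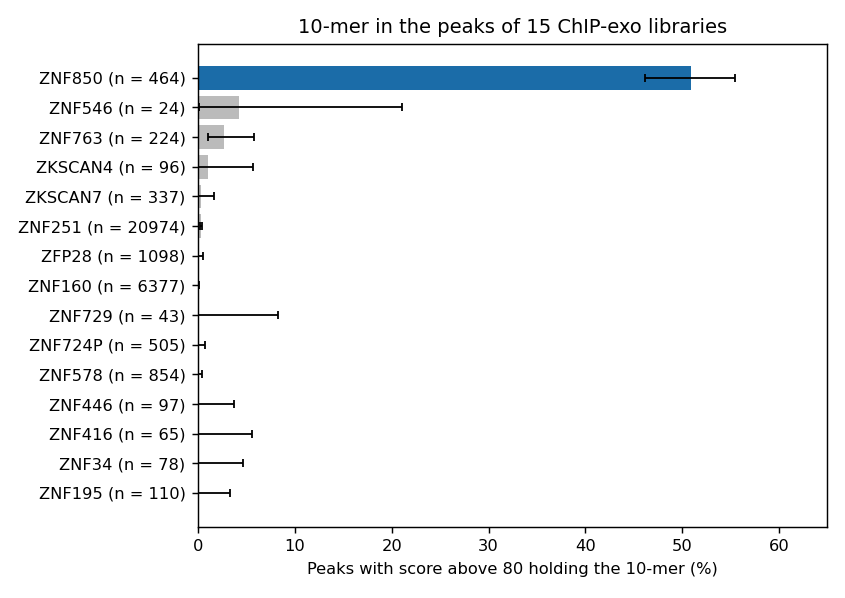
Share of peaks with a score above 80 (horizontal axis, percent) that held the 10-mer on either strand in each of the 15 ChIP-exo libraries, with n the number of peaks and error bars the exact 95% interval of counting. ZNF850 stood at 50.9%, and the bars of the other 14 libraries lay at or below 4.17%.

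The 10-mer lay close to the middle of the ZNF850 peaks. Its centre was a median of 30.2 bp from the peak centre over the 236 peaks that held it, in peaks with a median width of 492 bp, and within 50 bp in 78.4% of them. The distance was 32.5 bp for the largest group of peaks with similar sequence, named A, and 28.0 bp for group B.

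**Figure D2:**
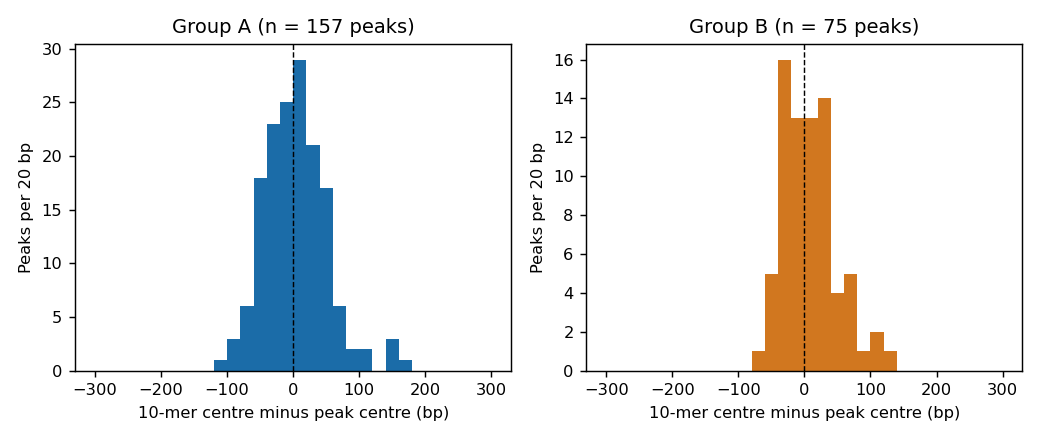
Position of the 10-mer relative to the peak centre (horizontal axis, bp) for the peaks of group A (157) and group B (75) with the exact 10-mer, in bins of 20 bp, with the number of peaks on the vertical axis. Both distributions were highest around 0, with medians of the absolute distance of 32.5 and 28.0 bp.

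The share of peaks with the 10-mer was larger among the higher scores. With the 464 peaks split by score into 4 sets of 116, the highest set (scores of 199.68 and above) held it in 76 peaks (65.5%), the next sets in 50.0% and 51.7%, and the lowest set in 36.2%. Among the 529 deposited ZNF850 peaks that scored 80 or less, 98 held it (18.5%, interval 15.3 to 22.1%). That share was below that of each of the 4 sets and above the 0.217% of the other libraries.

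Scores ran from 80.01 to 1698.79 with a median of 129, and 115 peaks exceeded 200 while 12 exceeded 500. The peaks just inside the threshold scored 80.01, 80.07 and 80.21, and those just outside 79.64, 79.51 and 79.27. The peak at 79.64, in an intron of SNTG2, carried the exact 10-mer, as did those at 80.07 and 80.21. Widths ran from 102 to 6065 bp. The peaks lay on 23 chromosomes, between 0.0855 per assembled Mb on chromosome 21 and 0.269 on chromosome 19 (0.162 over the genome), and none lay on Y.

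Most ZNF850 peaks resembled other ZNF850 peaks. A BLAST match of at least 100 bp to another peak was found for 335 peaks (72.2%, interval 67.9 to 76.2%). Such resemblance was not particular to ZNF850. Among up to 464 highest peaks of each other ChIP-exo library, the share ran from 18.5% for ZNF416 to 83.7% for ZNF729. It was 77.2% for ZNF724P and 76.5% for ZNF578. ZNF850 peaks linked by matches fell into group A with 193 peaks, group B with 114, group C with 19, and 4 small groups with 9 peaks, and the other 129 matched none. With BLAST's shorter word groups A and B joined into 1 group of 313 peaks. No repeat annotation was used here, so the groups are given by their sequence and not by the name of an element. The ranges of scores overlapped between all groups. The median score was 129 in group A, 166 in group B, 150 in group C and 116 in the single-sequence peaks.

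**Figure D3:**
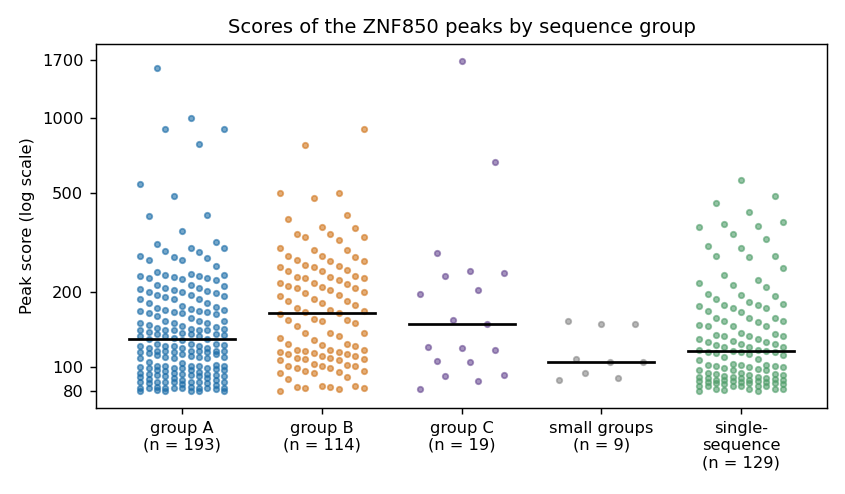
Score of each of the 464 ZNF850 peaks (vertical axis, log scale) by sequence group, with the horizontal bar at the group's median. The highest scores lay in group C (1698.79), group A (1587.86) and group B (903.42), and the highest single-sequence peak scored 565.81.

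Group A made up 41.6% of the peaks and was rich in G and C, with a mean of 63.3%. Of its peaks 157 (81.3%) carried the exact 10-mer and 35 carried it with 1 mismatch, leaving 1 peak. The peak with the most matches, in an intron of MIR924HG on chromosome 18 (36888636 to 36889298), matched 151 other peaks, at a median identity of 83.2%. Its score was 226.73. A group A peak over a non-coding exon of LINC00240, on chromosome 6 from 26924419 to 26924981, scored 485.05 and held the exact 10-mer. The group's highest scores stood on chromosome 5, where 7 peaks lay in and beside the duplicated region that holds SMN1 and SMN2, the survival motor neuron genes, with SERF1A, SERF1B and GTF2H2C. In order along the chromosome they scored 997.84, 541.93, 900.13, 788.75, 351.41, 1587.86 and 899.40. All 7 held the exact 10-mer, and all 21 pairs among them matched, at identities of 93.3 to 100%. Reads from such copies can be exchanged in alignment, so the score of each is uncertain. With this run counted as 1 peak, 50.2% of the ZNF850 peaks held the 10-mer.

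Group B made up 24.6% of the peaks and was poorer in G and C (mean 43.5%). The exact 10-mer was present in 75 of its peaks (65.8%) and a 1-mismatch form in another 27. Its highest peak scored 903.42 and lay in an intron of ACYP2, which encodes an acylphosphatase. The next, at 777.57, lay 2567 bp from the start of B4GALNT2, a glycosyltransferase gene. Peaks in introns of DNAH10, an axonemal dynein heavy chain, and TRIP11, which encodes a Golgi protein, scored 501.49 and 498.01. In the DNAH10 peak the best match to the 10-mer had 1 mismatch, and in the TRIP11 peak it had 2.

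The majority sequence of group B, taken over its peaks with 0 or 1 mismatch, shows how far the resemblance among its members reached.
Group B, 102 peaks: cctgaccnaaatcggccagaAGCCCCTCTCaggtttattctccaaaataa
The G next to last before the 10-mer was present in 97 of these 102 peaks. The pair of G at positions 12 and 13 was present in 93.1% and 97.1% of them, and the C at position 8 in 100%.

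Copies of both group sequences, with or without a ZNF850 peak, were sought across hg19, with the majority sequence of 100 bp to each side of the 10-mer as the query. Of 2734 copies of the group A sequence that spanned the 10-mer, 193 (7.06%) had a ZNF850 peak above 80 within 50 bp of the start of the 10-mer. The share differed with the number of mismatches to the 10-mer. It was 157 of 353 copies (44.5%, interval 39.2 to 49.8%) where the 10-mer was exact, 34 of 1612 (2.11%) with 1 mismatch, 2 of 579 (0.345%) with 2, and 0 of 190 (interval up to 1.92%) with 3 or more or a gap. On the even-numbered chromosomes the exact 10-mer had 77 of 169 copies under a peak (45.6%) and the 1-mismatch forms 17 of 779 (2.18%). Because the query was built from peaks, those of even-numbered chromosomes included, these shares describe copies near that sequence. The 10-mer was also chosen for its frequency in ZNF850 peaks, so a higher share at exact copies is partly built in.

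The most frequent form of the 10-mer among the group A copies carried a substitution and rarely had a peak. This form, C8T, made up 1226 of the 1612 copies with 1 mismatch, and 12 of them had a ZNF850 peak (0.979%, interval 0.507 to 1.70%). On the even-numbered chromosomes it was 3 of 591 (0.508%, interval 0.105 to 1.48%), against the 45.6% of the exact 10-mer. All other 1-mismatch copies of group A had a peak in 22 of 386 cases (5.70%, interval 3.61 to 8.50%). Among these the 2 most frequent forms were about as low as C8T, with 1 of 162 for A1G (0.617%) and 1 of 81 for C6T (1.23%). No other form had more than 19 copies. Median identity to the query was 88.5% for the exact copies and 87.5% for the C8T copies. The part of other bases of the copies in the difference was not tested, nor was that of how well reads align to each form. With every deposited ZNF850 peak counted, the exact copies reached 61.8%.

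Group B had 522 copies, and 106 (20.3%) carried a ZNF850 peak above 80. The share was 73 of 196 (37.2%, interval 30.5 to 44.4%) with the exact 10-mer, 27 of 165 (16.4%, interval 11.1 to 22.9%) with 1 mismatch, 5 of 86 (5.81%) with 2 and 1 of 75 (1.33%) beyond that. Its most frequent 1-mismatch form, C4T, had 17 copies, 3 of them under a peak. Among exact copies the share in group A was 30.7% in the 88 least like the query and 53.9% in the 89 most like it, with 40.8% and 34.7% in the 49 copies at each end of group B. Other ChIP-exo proteins had peaks above 80 at 37 of the 2734 group A copies (1.35%), 24 of ZNF251 and 12 of ZNF763, and at 2 of the 522 group B copies.

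**Figure D4:**
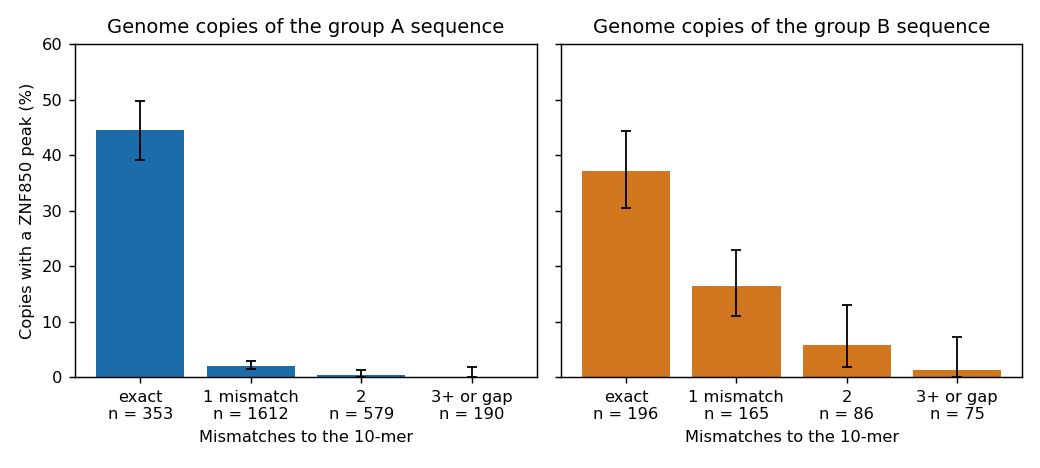
Share of genome copies of the group A (left) and group B (right) sequences with a ZNF850 peak above 80 (vertical axis, percent), by mismatches to the 10-mer in the copy, with n the number of copies and error bars the exact 95% interval of counting. The share fell from 44.5% to 2.11% between exact and 1 mismatch in group A, and from 37.2% to 16.4% in group B.

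The 129 single-sequence peaks rarely held the exact 10-mer (4 peaks), while 31 (24.0%) held it with 1 mismatch. At most 1 mismatch was found in 3.14% of the peaks of the other ChIP-exo libraries, and in 2.33% without ZNF251. A position weight matrix of 26 bases, trained on the single-sequence peaks of odd-numbered chromosomes and X, was used to look for a looser form. A match was called above the value that 1.00% of 300 bp genome windows reached. In the central 300 bp of the single-sequence peaks on even-numbered chromosomes, which were not used for training, 41 of 59 matched (69.5%, interval 56.1 to 80.8%). The training started from sites with at most 1 mismatch to the 10-mer, which was derived with the peaks of groups A and B included. Most peaks of both groups held the 10-mer, so their matches, in 97.4% and 96.5% of peaks, are a description only. Group C matched in 0 of 19 (interval up to 17.6%). The matrix was matched by 42.7% of the ZNF850 peaks that scored 80 or less and by 3.48% of RefSeq promoters. Of the other ChIP-exo libraries, each taken up to its 464 highest peaks, ZNF763 had the highest share, 9 of 224 (4.02%).

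**Figure D5:**
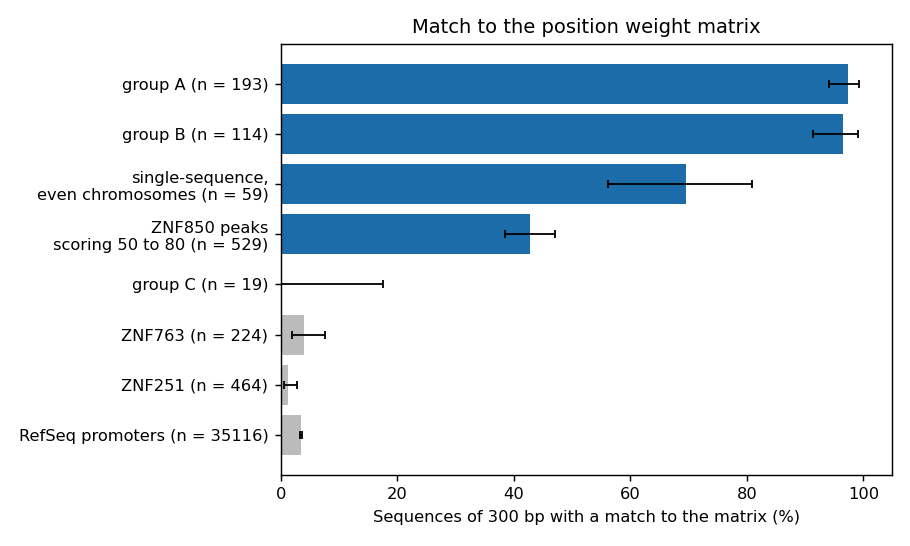
Share of 300 bp sequences with a match to the position weight matrix (horizontal axis, percent) in ZNF850 peaks (blue), in ZNF763 (4.02%, the highest of the other libraries) and ZNF251 (1.29%, the library that shared the most peaks with ZNF850), and in RefSeq promoters (3.48%), both in grey, with error bars the exact 95% interval of counting. The single-sequence peaks of even-numbered chromosomes stood at 69.5%, groups A and B above them.

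Trained on all single-sequence peaks, the matrix rested on 104 sites. The bases most often kept were C at positions 3, 4 and 10 of the 10-mer (94.8, 93.9 and 95.8%), the G at position 12 (92.9%) and the G next to last before the 10-mer (88.2%). Position 7 was C in 44.8% and T in 33.5% of the sites, and position 5 was C in 58.0% and T in 25.9%. Since the matrix itself chose the sites, these percentages describe the aligned letters and were not tested. Sites with at most 2 mismatches to the 10-mer in high-scoring peaks of even-numbered chromosomes, beyond those of CWF19L1 and CCNG2, are shown to set beside group B.
Near E2F6, chr2:11578976-11579001, plus strand: attgcaggAGCCCCcCTCaggtcaat
INPP5A intron, chr10:134417675-134417700, plus strand: ccgtcagggtCCCCTCTCtggcgtac
Near NCOA6, chr20:33423115-33423140, plus strand: cccacagaAGCCCCTtcCagtcatta
TMEM208, chr16:67260851-67260876, minus strand: tgagaggaAGCCgCcCTCaggcctag
TRPM8 intron, chr2:234901618-234901643, plus strand: ccattaggAGCCCCcCTCtggagaac
The peaks at these sites scored 419.59 near E2F6, 306.98 at INPP5A, 212.89 near NCOA6, 197.06 at TMEM208 and 192.41 at TRPM8. All 5 sites kept the C at positions 3, 4 and 10, and 4 of them kept the G pair at positions 12 and 13. The matrix and the limit on mismatches chose these sites, so this likeness follows in part from the choice. Sites that the matrix matched in higher-scoring peaks differed more from the 10-mer, with 3 mismatches near TBC1D1 (488.20) and 4 at TGIF2 (454.05).

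The share of peaks at a transcription start site (TSS) was larger among the single-sequence peaks than in groups A, B and C. Over all 464 peaks, 135 (29.1%, interval 25.0 to 33.5%) lay within 2500 bp of a TSS of any annotated transcript, against 19.6% of the other ChIP-exo peaks together, 11.6% without ZNF251, and between 6.98 and 70.8% in the other libraries. Introns held 181 ZNF850 peaks (39.0%), against 51.6% of the other libraries' peaks. A further 208 (44.8%) lay between genes, 25 at coding exons, 19 at untranslated exons and 31 at exons of non-coding transcripts. Some of those transcripts belonged to protein-coding genes, such as RASGEF1A. Among the single-sequence peaks 71 of 129 (55.0%, interval 46.0 to 63.8%) lay within 2500 bp of a TSS, against 17.1% (interval 12.1 to 23.2%) in group A and 21.1% (interval up to 29.7%) in group B, 0 of 19 in group C and 7 of 9 (77.8%) in the small groups. Introns held 34.9% of the single-sequence peaks, 40.9% of group A and 48.2% of group B. With protein-coding TSSs alone the counts were 50 single-sequence peaks (38.8%), 8 of group A (4.15%) and 12 of group B (10.5%). A peak covered a protein-coding TSS in 25 cases, 23 single-sequence and the other 2 in small groups. The matrix matched 25 of 34 single-sequence peaks at a TSS on even-numbered chromosomes (73.5%, interval 55.6 to 87.1%) and 16 of 25 away from one (64.0%, interval 42.5 to 82.0%), with intervals that overlapped.

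The highest-scoring single-sequence peaks at protein-coding TSSs were at TGIF2, which encodes a homeodomain repressor (454.05), MRPL9, a mitochondrial ribosomal protein (373.71), HELZ2, a helicase that acts as a nuclear receptor coactivator (369.71), and RASGEF1A, a Ras exchange factor (364.84). They were followed by KCMF1, a ubiquitin ligase gene (341.01), CWF19L1 (325.97) and TTYH1, of the tweety family of membrane proteins (300.89). These 7 were single-sequence peaks without an overlapping peak above 80 of another KZFP. The best match to the 10-mer had 1 mismatch at KCMF1 and CWF19L1, 315.5 and 41.0 bp from the peak centre, and 2 at the other 5. At most 2 mismatches were found in 30.4% of the other ChIP-exo peaks (19.4% without ZNF251). The group B peaks with the highest scores near a protein-coding TSS lay 1227 bp from AKAP11, a protein kinase A anchor (408.16), 561 bp from HYKK, hydroxylysine kinase (333.27), and 2111 bp from MFF, the mitochondrial fission factor (324.66). The peak over an untranslated exon of CCNG2, cyclin G2, scored 216.73 and was the highest single-sequence peak at an exon with the exact 10-mer, whose centre lay 1.5 bp from the peak centre. An untranslated exon of C1orf159 held a group A peak (200.09), also with the exact 10-mer.

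The highest single-sequence score, 565.81, belonged to a peak over a coding exon of ATP5MF, a subunit of the mitochondrial ATP synthase, on chromosome 7 from 99056495 to 99057111. It lay 6673 bp from the nearest protein-coding TSS, and its best match to the 10-mer (1 mismatch) was 200.5 bp from the peak centre. It overlapped a ZNF251 peak above 80. A single-sequence peak between genes on chromosome 4 (38181121 to 38181597), 133629 bp from the TSS of TBC1D1, scored 488.20, and its best match to the 10-mer had 2 mismatches. The ATP5MF pseudogenes ATP5MFP4 and ATP5MFP6 each had a ZNF850 peak (153.89 and 88.95), which formed a small group with another peak (108.02) over a non-coding gene near VIRMA. The other small groups joined a peak at SLX1B (148.97) with one over BOLA2B and SLX1A (149.28), the histone pseudogenes H2AZP2 (95.19) and H2AZP3 (90.77), and a pair on chromosome 10 (105.33 and 105.10). Of these 9 peaks 4 held the 10-mer with 1 mismatch and none held it exactly. The 4 were the SLX1B and SLX1A pair and the chromosome 10 pair, so matching copies were counted separately. At most 1 mismatch was found in 3.14% of the other ChIP-exo peaks.

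Few genes had a ZNF850 peak in the gene or within 2500 bp of it, in the lists examined and over all protein-coding genes. Of 20163 protein-coding genes 235 did (1.17%). Zinc finger genes had 2 of 608 (0.329%), ZNF564 and ZNF589. Protocadherins had 1 of 66, PCDH15, a cell adhesion gene of the inner ear and retina. Olfactory receptors had 1 of 415, OR10H4. No peak was found at any of 92 histone genes, 39 HOX genes, 30 imprinted genes, 12 genes of the KAP1 machinery (TRIM28, SETDB1, the HP1 genes CBX1, CBX3 and CBX5, and others) or 4 importins. Lists as short as these can have none at a share of 1.17%. The ZNF850 gene itself, on chromosome 19 from 37205285 to 37263727 on the minus strand, had 0 of the 993 deposited peaks in it or within 100 kb.

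Group C had another sequence and other neighbours. None of its 19 peaks held the 10-mer with fewer than 2 mismatches. Its highest peak, on chromosome 9 from 66970779 to 66971759, scored 1698.79, the highest value of the ZNF850 list. The widest ZNF850 peak, 6065 bp on chromosome 2 (92305123 to 92311187), was also in group C, scored 668.00 and overlapped peaks of ZFP28 and ZKSCAN8. Shifted against itself the highest peak, on chromosome 9, was 75.9% identical at 342 bp and 68.1% at 171 bp. In all 18 group C peaks of 500 bp or more, 171 bp was the best shift from 150 to 250 bp. Human alpha satellite, the repeat of centromeres, is built of units of that length. A stretch as long as 1 such shift, plus strand, chr9:66970979-66971149, is given to show the difference from group B.
Group C: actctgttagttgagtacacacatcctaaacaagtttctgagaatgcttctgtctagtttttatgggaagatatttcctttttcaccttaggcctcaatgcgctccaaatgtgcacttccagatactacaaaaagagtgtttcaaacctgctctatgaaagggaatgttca
An assembly gap of at least 50 kb, as centromeres are in hg19, lay no more than 1 Mb away from 18 of the 19. Over all ZNF850 peaks that share was 12.9% (60 of 464), against 10.8% of the other ChIP-exo peaks and 12.8% of them without ZNF251. By library it ran from 9.82% for ZNF251 to 81.4% for ZNF729.

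Group C also held most of the sites shared with several KZFPs. Across the ZNF850 list 43 peaks (9.27%, interval 6.79 to 12.3%) overlapped a peak above 80 of another ChIP-exo library, against 2.32% of the peaks of the other ChIP-exo libraries (5.44% without ZNF251). By library that share ran from 0.849% for ZNF251 to 86.0% for ZNF729, and was 9.37% for ZNF578 and 8.91% for ZNF724P. No deposited peak of any other library overlapped 392 ZNF850 peaks (84.5%, interval 80.9 to 87.7%), against 96.2% of the other ChIP-exo peaks (91.9% without ZNF251) and from 4.65% for ZNF729 to 98.2% for ZNF251 by library. Among group C 16 of 19 (84.2%) overlapped a peak above 80 of another KZFP by either method, against 10 of 193 in group A (5.18%), 2 of 114 in group B (1.75%) and 16 of 129 single-sequence peaks (12.4%). Of the 8 ZNF850 peaks shared with 5 or more KZFPs, 7 were in group C. The other, a single-sequence peak in an intron of SENP5 that scored 181.80, overlapped 9 KZFPs, the highest number in the list. The chromosome 9 peak overlapped 8, namely ZFP28, ZNF160, ZNF251, ZNF578, ZNF724P, ZNF729, ZKSCAN8 and ZNF597. The control library of 293T cells, made by ChIP-seq, had 4 peaks above 80, all within 1 Mb of an assembly gap. No ZNF850 peak overlapped any of its 163 deposited peaks, but so short a list from another assay says little about the shared sites. The matching share for the other ChIP-exo libraries is not given here. The part of read alignment within repeats in these shared sites was not tested.

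By library, ZNF251 overlapped the most ZNF850 peaks, 34 (7.33% of the ZNF850 peaks, 0.162% of its own 20974). ZNF578 overlapped 16 (3.45%, 1.87% of its own) and ZNF729 13 (2.80%, 30.2% of its own 43), and 13 and 11 of those were in group C. ZNF34 overlapped none. The 10 group A peaks that overlapped another KZFP all overlapped ZNF251. Of the 55 ZNF251 peaks with the 10-mer 8 overlapped a ZNF850 peak. No peak with the 10-mer in the remaining ChIP-exo libraries overlapped one.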

How the data were processed

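The 22 peak lists were deposited as BED files on hg19 (GRCh37). The authors aligned reads with Bowtie2 and called peaks per library with MACS against a control, and the deposited values are the MACS score of each peak. The submitters' processing notes name Bowtie2 2.2.1 and MACS 1.4. Replicates were not part of the design, so libraries were compared by counts and shares. Coordinates were read from GRCh37 with pyfaidx 0.9.0.4 and annotated with GENCODE release 44 lifted to it. Peaks overlapped by at least 1 bp. Sequence groups are connected sets of BLAST+ 2.17.0 megablast matches (at least 100 bp, E-value at most 1e-5). Genome copies were sought with the blastn task and the same limits. Intervals come from SciPy 1.17.1. The functions were tested on simulated data.

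Named peaks were the 10 highest of the list, without any other library, at exons of protein-coding genes and at protein-coding TSSs, with the highest of each group, the peak with the most matches, the 3 nearest the threshold on each side and any at the ZNF850 gene. Sequences shown were the highest-scoring of their group with the stated match (the second of another chromosome and sequence, none from chromosome 8), those at single-sequence sites with a match within 100 bp of the peak centre; the small groups and the genes near the sites shown were picked after their values were seen. The members, lists and motif were chosen with earlier results of these data known. The 2 input samples were not used here. Some sequences are not reported here.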

Additional observations from a re-analysis of the deposited data

How the results depend on the processing

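Of 61 alternatives over 21 results, 25 stayed within the interval of the value given (or 1.5 times a count) and 36 did not. Of the alternatives, 20 were chosen after seeing the data, all those on the 10-mer, the genome copies, the shorter BLAST word and the other libraries without ZNF251. With all deposited peaks there were 993 peaks, of which 24.6% lay at a TSS, 60.6% matched another peak, 17.0% lay near a gap, 40.4% held the 8-mer and 33.6% the 10-mer, with a median width of 415 bp. Exact copies then reached 61.8% in group A and 54.1% in group B. Above 150 there were 188 peaks, 78.2% with a match, 67.0% with the 8-mer and 60.6% with the 10-mer, 544 bp wide in the median, and above 100 the 10-mer share was 56.4% and the width 517 bp. The share at a TSS was 20.7% within 1000 bp, 38.6% within 5000 bp and 15.7% with protein-coding transcripts, and the intron share was 27.2% with protein-coding genes. Near a gap lay 4.74% within 0.1 Mb and 38.8% within 5 Mb. In the central 100 bp 39.0% held the 8-mer and 36.9% the 10-mer, and in the central 200 bp 52.8% held the 8-mer. Overlap with all deposited peaks of the other libraries was 15.3%. With BLAST's shorter word groups A and B joined into 1 group of 313 peaks. Each KZFP had 1 library, and the lists give no depth, so neither the spread between replicates nor how many sites lie under the caller's limit can be given. No paired analysis was possible because each group had 1 sample.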
